A study of Mus musculus with 16 samples.

Results

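Expression of 9 genes of the endothelin, nitric oxide, prostanoid and angiotensin pathways was examined in mouse lung endothelial cells (MLECs) treated with bone morphogenetic protein 9 (BMP9). The genes were *Edn1*, *Ece1*, *Ednrb*, *Nos3*, *Cav1*, *Ptgs1*, *Ptgs2*, *Ptgis* and *Ace*. They were taken by symbol from the 55414 genes in the deposited table of read counts, with earlier results of these data known. All 9 had enough reads to be tested, as did 15693 genes in all. The experiment was designed to separate BMP9 targets that need the co-receptor endoglin (ENG) from those that do not.

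MLECs came from 4 independent isolations, from mice carrying *Rosa26*-CreERT2, *Eng* fl/fl and the Immorto transgene, and were selected with CD31-coated and then ICAM2-coated beads. Cre driven from the *Rosa26* locus is not restricted to a cell type, and the deletion was induced in culture. Every library thus came from floxed, conditionally immortalised cells, which had been grown with interferon-γ and the TGF-β receptor inhibitor SB431542 and were serum-starved before treatment. Ctrl cells received vehicle and KO cells received 4-OH-tamoxifen. Ctrl cells were then given PBS or sENG(M):BMP9, a complex of BMP9 and soluble monomeric ENG. KO cells were given PBS or pro:BMP9, the form that carries the BMP9 prodomain. The ligand dose was 0.2 ng/ml of growth factor domain, for 90 min. Each of the 4 groups had 4 libraries, and a replicate number marks the isolation. In this design the deletion of *Eng* cannot be told apart from 4-OH-tamoxifen, nor genotype from the form of the ligand.

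Endothelial cells set vascular tone through secreted signals that act on neighbouring smooth muscle and on the endothelium itself. Endothelin-1 is a potent vasoconstrictor peptide, while nitric oxide and prostacyclin relax vessels, and angiotensin-converting enzyme on the lung endothelium makes angiotensin II and degrades bradykinin. BMP9 is a circulating ligand of the endothelial receptor ALK1, which signals through Smad1 and Smad5, and endothelin is a drug target in pulmonary arterial hypertension.

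Libraries held between 14869115 and 17242117 counts. *Eng* fell from 460.1 ± 93.6 CPM (counts scaled to the library total, with TMM) in Ctrl PBS to 51.2 ± 8.37 CPM in KO PBS (mean ± SD, n = 4), and rose with ligand to 641 ± 104 CPM in Ctrl cells (adjusted p = 0.00163) and to 120.5 ± 7.22 CPM in KO cells (adjusted p = 2.8e-07). The KO and Ctrl libraries did not overlap in *Eng*. The endothelial markers *Pecam1* and *Cdh5* averaged 1322 and 2038 CPM in Ctrl PBS, and the summed level of 8 endothelial markers lay between 3079 and 6683 CPM over all libraries. The sum of 4 lymphatic endothelial markers lay between 3558 and 7145 CPM, most of it *Lyve1* and *Flt4*, with *Prox1* at 6.34 to 66.2 CPM. Summed fibroblast markers reached 657 CPM, smooth muscle and pericyte markers 264 CPM, epithelial markers 180 CPM and leukocyte markers 49.9 CPM, and their part in the results was not tested. Of the epithelial markers, *Krt18* averaged 87.2 CPM and *Krt8* 14.0 CPM in Ctrl PBS, but *Cdh1* 1.53 CPM and *Epcam* 0.0487 CPM. Of the leukocyte markers, *Cd68* averaged 33.5 CPM and *Lyz2* 7.89 CPM there, but *Ptprc* 0.0639 CPM. In such bulk samples, fewer cells of a type and less RNA per cell cannot be told apart.

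To compare levels between genes, CPM were divided by the deposited gene length in kilobases (kb). In Ctrl PBS, *Cav1* had 206 ± 57.7 CPM per kb, *Ece1* 194.5 ± 46.6, *Ace* 167.8 ± 66.5 and *Nos3* 130.2 ± 36.9 CPM per kb (SD, n = 4). These 4 formed an upper tier, in which each gene exceeded the next in 3 of 4 isolations, so that their order was not the same in every isolation. *Ptgis* followed with 62.6 ± 15.7 CPM per kb, below *Nos3* and above *Ptgs2* in 4 of 4 isolations. *Ptgs2* (23.9 ± 9.64), *Edn1* (14.1 ± 8.37), *Ednrb* (11.9 ± 12.8) and *Ptgs1* (9.66 ± 3.74 CPM per kb) were lowest, and these neighbours exceeded each other in only 2, 3 and 2 of 4 isolations. After sENG(M):BMP9, *Ptgs2* had 76.9 ± 32.2 and *Edn1* 53.0 ± 27.4 CPM per kb. The plot of expression by library shows this range.

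**Figure D1:**
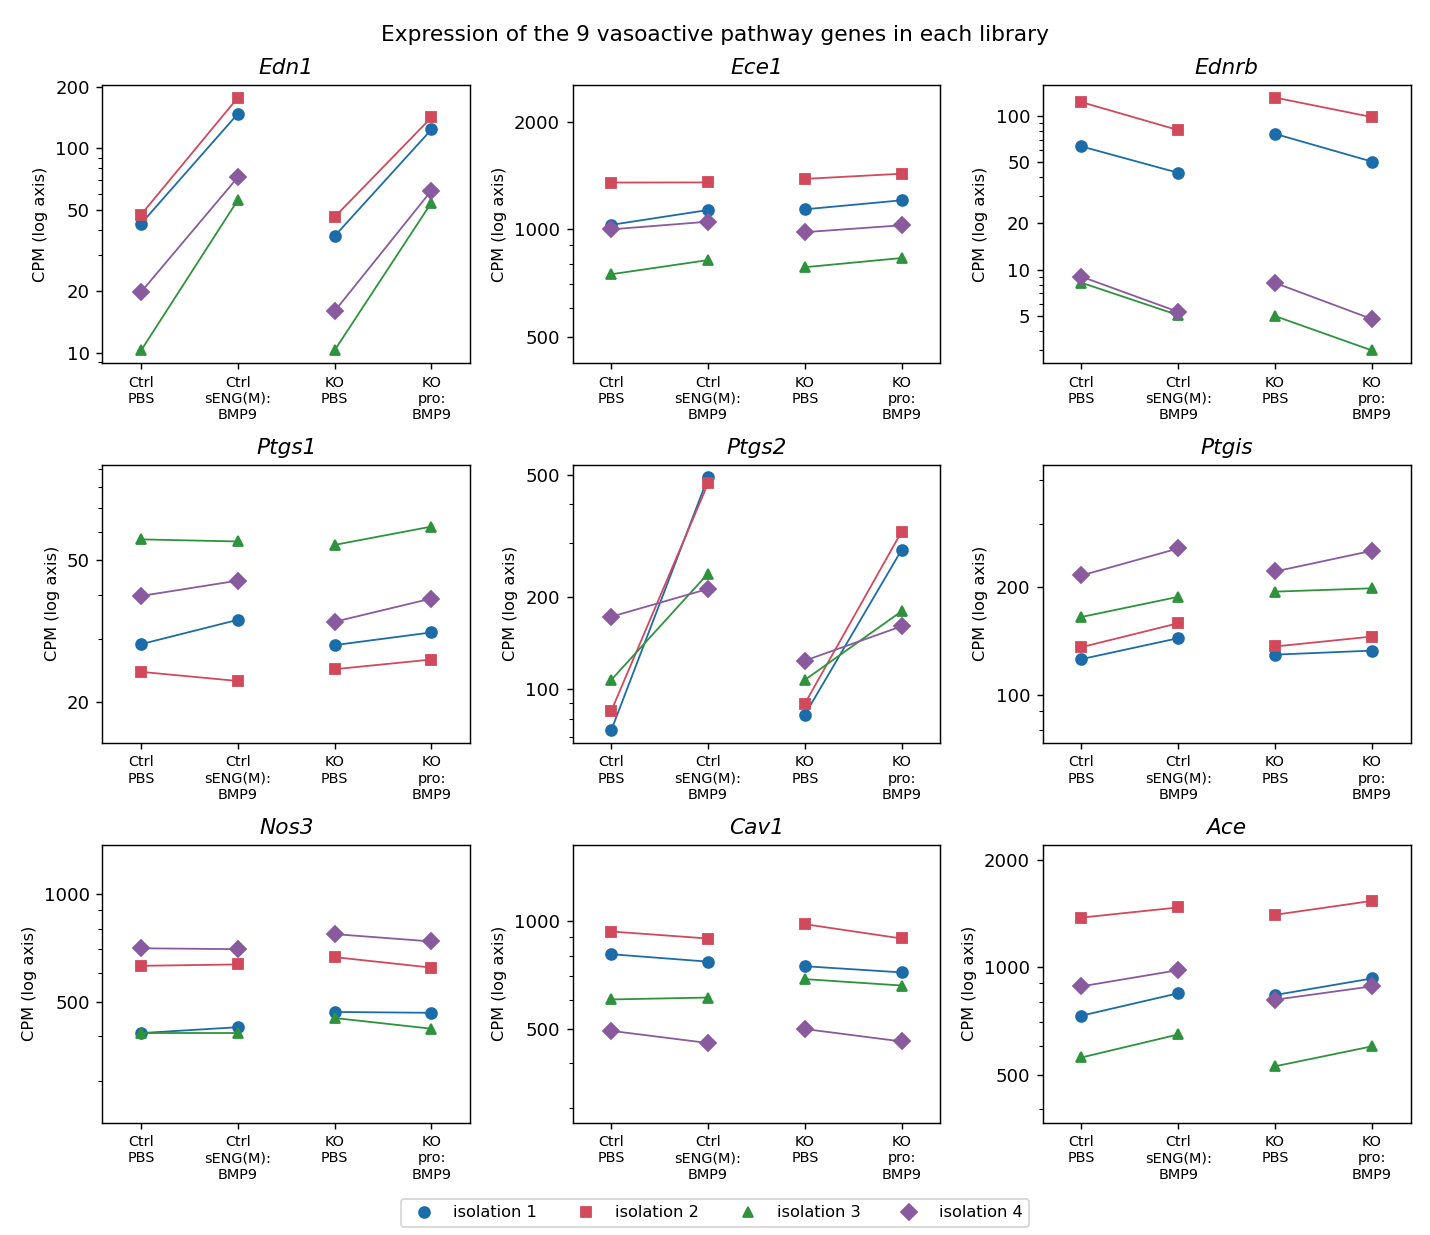
TMM-scaled CPM (log axis) of the 9 genes in each of the 16 libraries, 1 panel per gene; lines join the PBS and ligand libraries of 1 isolation, and symbols mark the isolations. *Edn1* and *Ptgs2* were higher with ligand in every isolation, *Ednrb* was lower, and the isolations were set apart from each other by more than the treatment for *Ednrb* (20.4-fold between the highest and lowest isolation mean).

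The 3 genes with the largest responses, *Edn1*, *Ptgs2* and *Ednrb*, are shown with the 250 bases upstream of their RefSeq start, since BMP-activated Smads bind DNA at short elements in regulatory regions. The windows were taken from RefSeq (GRCm38.p6) and placed on GRCm39 by an exact match at 1 position each: *Edn1* at chr13:42454702-42454951 on the plus strand, *Ptgs2* at chr1:149975532-149975781 on the plus strand and *Ednrb* at chr14:104081138-104081387 on the minus strand. The *Edn1* and *Ptgs2* windows end at the base before the deposited gene start, and the *Ednrb* window lies inside the deposited gene, downstream of its outermost start. In GENCODE vM39, *Edn1* and *Ptgs2* start upstream of these windows, at 42446301 and 149975194, so all 3 windows lie within the annotated gene. On the opposite strand, *Gm47118* and *Gm60910* overlap *Edn1*, and *Ptgs2os* overlaps *Ptgs2*. Sequences are given 5′ to 3′ on the gene's strand. Capitals mark matches, on either strand, to GGCGCC (a GC-rich element bound by Smad1 and Smad5), GTCT (the core of the Smad box, which reads AGAC on the other strand), TGANTCA (AP-1) and GATA.
Edn1: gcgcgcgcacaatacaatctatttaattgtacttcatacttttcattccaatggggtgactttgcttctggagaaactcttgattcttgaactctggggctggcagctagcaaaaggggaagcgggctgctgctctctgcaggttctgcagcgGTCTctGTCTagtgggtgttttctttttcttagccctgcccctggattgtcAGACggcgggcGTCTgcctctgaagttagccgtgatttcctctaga
Ptgs2: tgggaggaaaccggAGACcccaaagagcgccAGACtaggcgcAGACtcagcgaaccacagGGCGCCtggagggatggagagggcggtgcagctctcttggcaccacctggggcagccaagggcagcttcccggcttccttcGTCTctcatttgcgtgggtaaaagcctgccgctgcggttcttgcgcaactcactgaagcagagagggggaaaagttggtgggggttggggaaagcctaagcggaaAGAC
Ednrb: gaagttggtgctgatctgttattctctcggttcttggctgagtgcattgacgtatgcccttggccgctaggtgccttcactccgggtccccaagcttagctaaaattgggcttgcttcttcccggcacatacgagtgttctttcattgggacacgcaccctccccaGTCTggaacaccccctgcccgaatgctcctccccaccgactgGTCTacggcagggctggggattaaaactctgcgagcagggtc

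The *Edn1* window held 4 GTCT cores and no GGCGCC, the *Ptgs2* window held 5 GTCT cores and 1 GGCGCC, and the *Ednrb* window held 2 GTCT cores. None of the 3 held TGANTCA or GATA. The capitals do not overlap one another. Among 32841 RefSeq windows of the same length, 82.9% held at least 1 GTCT, 54.9% at least 2, 12.5% at least 4 and 4.68% at least 5. GGCGCC was in 9.59% of these windows, TGANTCA in 6.75% and GATA in 53.6%. Matches to 2 further motifs are not capitalised: CACCC (KLF factors; 52% of windows) occurred 2 times in the *Edn1* and *Ednrb* windows and not in that of *Ptgs2*, and CANNTG (the E-box; 66.2%) occurred 2 times in the *Ptgs2* window alone among these 3. These matches describe the letters in the windows only. RefSeq windows were held for 7 of the 9 members, not for *Nos3* and *Ptgis*. The members with smaller or no called responses held such matches too. The *Ece1* windows held 2, 1, 4 and 3 GTCT cores, and 1 of these windows held 1 GGCGCC. Each *Cav1* and *Ptgs1* window held 2 GTCT cores, and the *Ace* windows held 0 and 2.

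The first comparison asked which members responded to sENG(M):BMP9 in Ctrl cells. *Edn1* and *Ptgs2* rose several-fold, *Ptgis* and *Ace* rose slightly, and *Ednrb* fell. These were 5 of the 9 members at an adjusted p under 0.05 (edgeR's quasi-likelihood test, isolation as a block, Benjamini-Hochberg adjustment over all tested genes), 4 higher and 1 lower, against 9.69% of all 15693 genes. In KO cells pro:BMP9 changed 3 of the 9, *Edn1* and *Ptgs2* upward and *Ednrb* downward, against 5.59% of all genes. The 9 members had a median log2 fold change of 0.09 in either genotype, beside medians of -0.0051 and 4e-04 over all genes tested. The members were chosen with earlier results of these data known, which limits what these shares can show.

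*Edn1* (ENSMUSG00000021367, chromosome 13, 42454952 to 42461466, plus strand, GRCm39) encodes the precursor of endothelin-1. Ctrl cells of isolations 1 to 4 had 659, 722, 171 and 328 *Edn1* counts in PBS and 2490, 2648, 962 and 1252 after sENG(M):BMP9. KO cells had 587, 706, 171 and 271 counts in PBS and 1794, 2255, 837 and 951 after pro:BMP9. Isolations 1 and 2 had the most *Edn1* in every group, and in CPM every ligand-treated library lay above every PBS library of its genotype.

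In Ctrl cells *Edn1* rose from 30.1 ± 17.9 to 113 ± 58.5 CPM (SD, n = 4), which is 1.95 on the log2 scale with an SE of 0.0973 and an adjusted p of 8.74e-11. The KO cells went from 27.4 ± 17.1 to 95.6 ± 43.8 CPM, which is 1.88 on the log2 scale with an SE of 0.0992 and an adjusted p of 3.38e-10. *Edn1* rose in every isolation: by isolation it was 3.45-, 3.74-, 5.45- and 3.65-fold for Ctrl and 3.32-, 3.07-, 5.28- and 3.89-fold for KO. Isolation 3, with the lowest PBS level, had the largest fold in both genotypes, above the 3.07- to 3.89-fold of the others. Without the replicate block *Edn1* kept its size (log2 fold changes of 1.92 and 1.80) but not its call (adjusted p = 0.212 and 0.451), as the spread between isolations then entered the error.

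*Ece1* (ENSMUSG00000057530, chromosome 4, 137589548 to 137692540) encodes the protease that cleaves big endothelin to the active peptide. It had 1031 ± 247 CPM in Ctrl PBS and 1088 ± 219.9 after ligand, and 1070 ± 253 and 1122 ± 255 CPM in KO cells. Its log2 fold changes of 0.09 (adjusted p = 0.147) and 0.07 (adjusted p = 0.364) did not pass the threshold, although the ligand-treated library was the higher in 4 of 4 isolations in both genotypes. In isolation 2 of Ctrl cells the levels were nearly equal, at 1350 CPM in PBS and 1351 CPM with ligand.

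*Ednrb* (ENSMUSG00000022122, chromosome 14, 104052061 to 104081838, minus strand) encodes the endothelin B receptor, which on endothelium clears endothelin-1 and triggers release of nitric oxide and prostacyclin. Ctrl cells of isolations 1 to 4 had 975, 1873, 137 and 149 *Ednrb* counts in PBS and 718, 1208, 87 and 92 after sENG(M):BMP9. KO cells had 1205, 2014, 83 and 139 counts in PBS and 732, 1563, 46 and 73 after pro:BMP9. Isolations 1 and 2 were far above isolations 3 and 4, so the groups overlapped, yet within each isolation the ligand-treated library was the lower.

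*Ednrb* fell by 0.64 on the log2 scale in Ctrl cells, with an SE of 0.117 and an adjusted p of 8.61e-04. It fell by 0.54 in KO cells, with an SE of 0.114 and an adjusted p of 0.00521. The ligand-treated library had 0.673, 0.658, 0.615 and 0.591 of the PBS level across the isolations for Ctrl, and 0.661, 0.747, 0.598 and 0.583 for KO. The KO call was lost without isolation 1, at a log2 fold change of -0.52 (adjusted p = 0.0627). Without the replicate block neither call remained (adjusted p = 1 in both genotypes), at log2 fold changes of -0.61 and -0.50. Means per isolation were 58.3, 108.5, 5.31 and 6.82 CPM, and isolation accounted for 96.1% of the variance of log2 *Ednrb* over the 16 libraries. The summed endothelial markers of isolations 1 and 2 (5010 to 5734 and 6604 to 6683 CPM) also lay above those of isolations 3 and 4 (3079 to 3355 and 4644 to 4906 CPM). The same split was seen for lymphatic endothelial markers (5087 to 5869 and 6423 to 7145 CPM against 3558 to 3718 and 4513 to 4896 CPM) and for epithelial markers (124 to 151 and 161 to 179.6 CPM against 61.7 to 82.2 and 49.5 to 60.1 CPM). Most of the epithelial sum was *Krt18*. Smooth muscle and pericyte markers did not split this way, at 134.5 to 264, 35.1 to 41.9, 167 to 196 and 84.2 to 113 CPM in isolations 1 to 4. Nor did leukocyte markers, at 36.4 to 38.8, 44.5 to 48.0, 34.1 to 40.1 and 43.3 to 49.9 CPM, or the fibroblast markers given below for *Ptgs2*. The part of these in the *Ednrb* level was not tested.

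**Figure D2:**
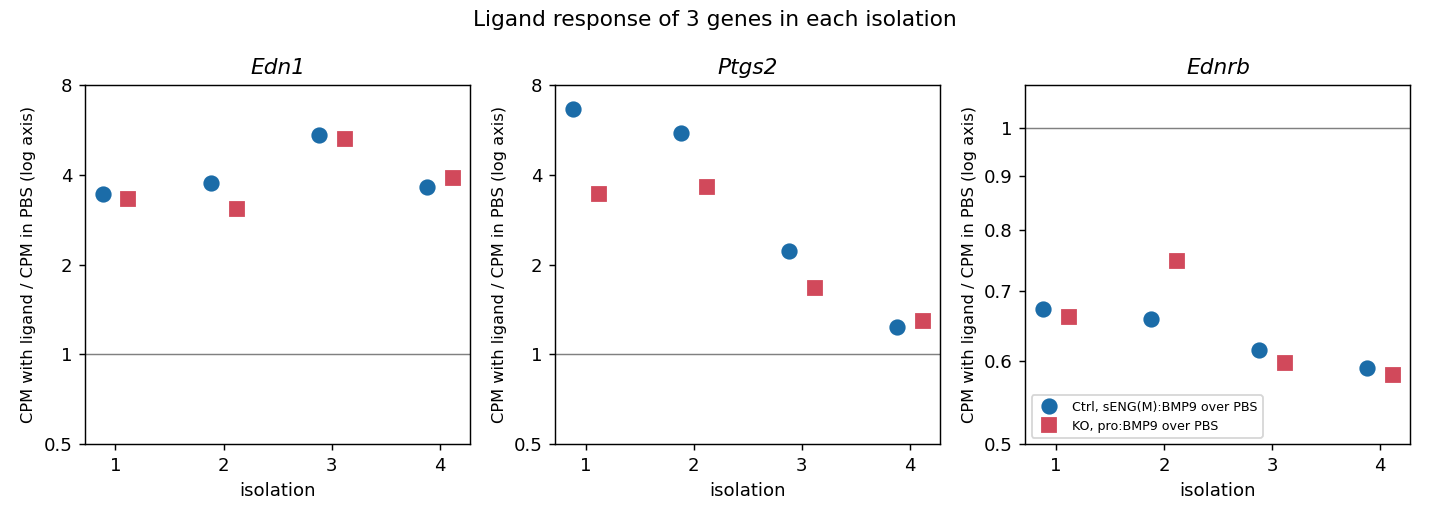
CPM with ligand divided by CPM in PBS (log axis; the range differs for *Ednrb*) for *Edn1*, *Ptgs2* and *Ednrb* in isolations 1 to 4, with circles for Ctrl and squares for KO cells. *Ptgs2* ranged from 6.67-fold in isolation 1 to 1.23-fold in isolation 4 of Ctrl cells, while *Edn1* lay between 3.07- and 5.45-fold throughout and *Ednrb* below 1 throughout.

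*Ptgs2* (ENSMUSG00000032487, chromosome 1, 149975782 to 149983978, plus strand) encodes cyclooxygenase-2, the inducible enzyme that makes prostaglandin H2. Ctrl cells of isolations 1 to 4 had 1131, 1294, 1787 and 2852 *Ptgs2* counts in PBS and 8251, 6994, 4097 and 3674 after sENG(M):BMP9. KO cells had 1301, 1372, 1784 and 2101 counts in PBS and 4123, 5183, 2766 and 2452 after pro:BMP9. Ligand-treated and PBS libraries did not overlap in CPM in either genotype. In both genotypes isolations 1 and 2 were the lowest in PBS and the highest with ligand.

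*Ptgs2* rose from 109.5 ± 44.2 to 352 ± 147 CPM in Ctrl cells, or 1.64 on the log2 scale with an SE of 0.291 and an adjusted p of 6.53e-04. The KO cells went from 100.9 ± 18.5 to 238 ± 80.4 CPM, or 1.20 on the log2 scale with an SE of 0.289 and an adjusted p of 0.0147. The size depended on the isolation, at 6.67-, 5.51-, 2.22- and 1.23-fold for Ctrl and 3.45-, 3.64-, 1.67- and 1.29-fold for KO. Leaving out isolation 1 or 2 lowered the KO log2 fold change to 1.00 (adjusted p = 0.0773) or 0.96 (adjusted p = 0.157), so the call in KO cells rested on these isolations. Without the replicate block it was 1.24 (adjusted p = 0.232). The Ctrl call was kept under each of 12 alternatives, with log2 fold changes between 1.26 and 2.12.

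The unequal response of *Ptgs2* prompted a test, chosen after its values were seen, of whether the ligand response differed between isolations over both genotypes. *Ptgs2* had the smallest p of all 15693 genes (adjusted p = 1.28e-04, edgeR quasi-likelihood F test of the isolation-by-ligand terms), and 0.178% of all genes (28 genes) passed. *Edn1* was in place 41 with an adjusted p of 0.114, and each of the other 7 members had an adjusted p of 1. For *Ptgs2* the isolation itself accounted for 1.71% of the variance of log2 CPM, the group for 74.2% and the remainder for 24.1%. For the 7 members other than *Edn1* and *Ptgs2* the isolation accounted for 92.1% to 96.8%, and for *Edn1* it accounted for 37.0%, beside 61.6% for the group. The summed endothelial, lymphatic endothelial and epithelial markers were higher in isolations 1 and 2, with the stronger *Ptgs2* responses, as given for *Ednrb* above. Summed fibroblast markers did not split the isolations this way, at 491 to 583, 81.3 to 90.9, 560.5 to 657 and 349 to 547 CPM in isolations 1 to 4. Smooth muscle and pericyte markers and leukocyte markers did not either, as given for *Ednrb* above. The part of these marker levels in the *Ptgs2* response was not tested.

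*Ptgs1* (ENSMUSG00000047250, chromosome 2, 36120438 to 36142284) encodes the constitutive cyclooxygenase-1. It had 37.5 ± 14.5 and 39.2 ± 14.2 CPM in Ctrl cells and 35.6 ± 13.5 and 39.6 ± 15.8 CPM in KO cells without and with ligand, and its log2 fold changes of 0.07 (adjusted p = 0.649) and 0.15 (adjusted p = 0.281) did not pass. *Ptgis* (ENSMUSG00000017969, chromosome 2, 167033725 to 167082524, minus strand) encodes prostacyclin synthase, which turns prostaglandin H2 into the vasodilator prostacyclin. Ctrl cells of isolations 1 to 4 had 125.9, 136, 165 and 216 CPM of *Ptgis* in PBS and 144, 159, 188 and 257 CPM after sENG(M):BMP9. The groups overlapped, but *Ptgis* was higher with ligand in 4 of 4 isolations, by 0.21 on the log2 scale (SE 0.0443, adjusted p = 0.00262). This call was lost without the replicate block (adjusted p = 1), at a log2 fold change of 0.22. In KO cells *Ptgis* was at 171 ± 44.7 and 183 ± 54.9 CPM, a log2 fold change of 0.09 (adjusted p = 0.391). The difference of both responses was -0.13 (95% interval -0.257 to 0.0058, adjusted p = 1).

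*Nos3* (ENSMUSG00000028978, chromosome 5, 24569808 to 24589472) encodes endothelial nitric oxide synthase. It had 538 ± 153 and 542 ± 148 CPM in Ctrl cells and 589 ± 157 and 561 ± 146 CPM in KO cells without and with ligand. Its log2 fold changes with ligand were 0.01 in Ctrl cells (95% interval -0.0553 to 0.0839, adjusted p = 0.898) and -0.07 in KO cells (95% interval -0.137 to 0.0018, adjusted p = 0.375). *Cav1* (ENSMUSG00000007655, chromosome 6, 17306334 to 17341451) encodes caveolin-1, a coat protein of caveolae that binds and restrains this synthase. It had 709 ± 199 and 682 ± 190.3 CPM in Ctrl cells and 728 ± 198 and 683 ± 179 CPM in KO cells. Its log2 fold changes were -0.06 (95% interval -0.147 to 0.031, adjusted p = 0.536) and -0.09 (95% interval -0.181 to -0.0022, adjusted p = 0.337). Both genes were thus abundant, with intervals that lay close to 0, although that of *Cav1* in KO cells did not include 0. In KO cells *Cav1* passed under 2 of 12 alternatives and *Nos3* under 1. In Ctrl cells *Cav1* passed under 1 of 12 and *Nos3* under 0.

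*Ace* (ENSMUSG00000020681, chromosome 11, 105858771 to 105880790) encodes angiotensin-converting enzyme. Ctrl cells of isolations 1 to 4 had 731, 1376, 559 and 883 CPM in PBS and 845, 1469, 648 and 981 CPM after sENG(M):BMP9. *Ace* was higher with ligand in 4 of 4 isolations of each genotype although the groups overlapped, by 0.17 on the log2 scale in Ctrl cells (SE 0.0493, adjusted p = 0.0377) and by 0.15 in KO cells (SE 0.0493, adjusted p = 0.109). The Ctrl call was fragile: it was lost without any 1 of the 4 isolations (adjusted p between 0.0515 and 0.164) and was made under 5 of 12 alternatives.

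**Figure D3:**
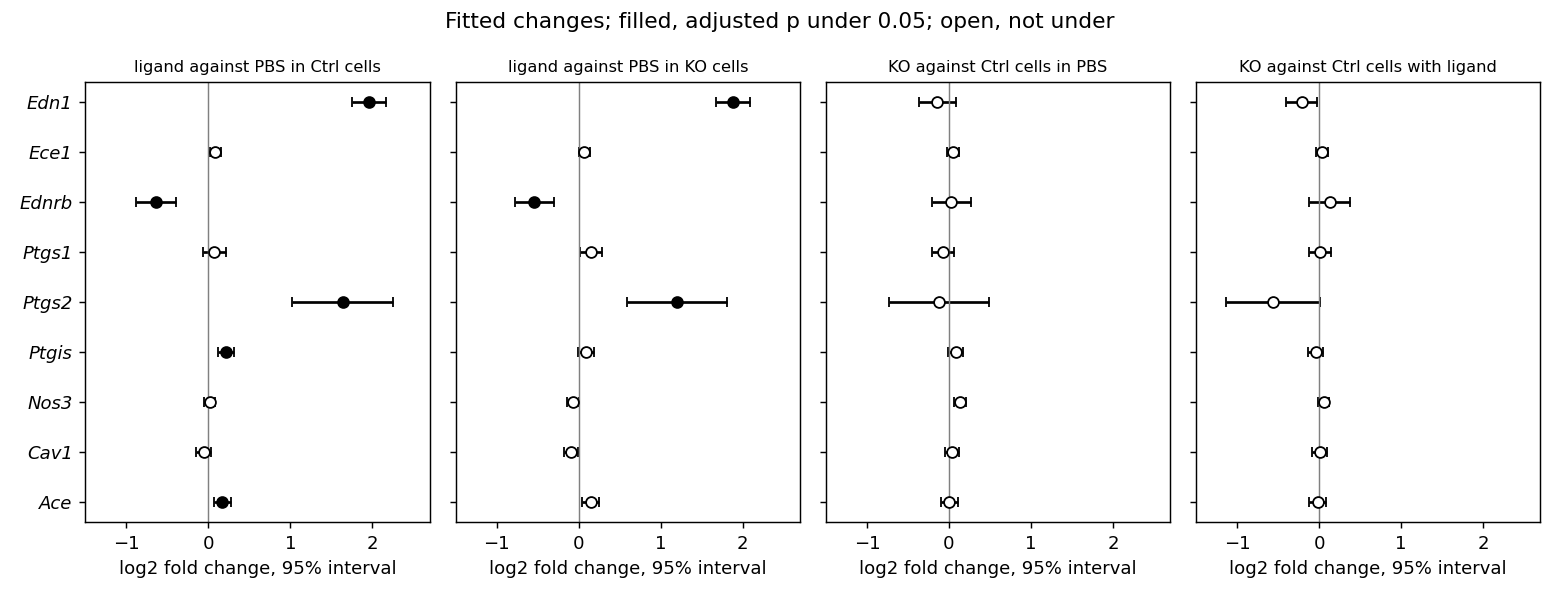
Fitted log2 fold changes of the 9 genes with 95% intervals in 4 comparisons; filled circles passed an adjusted p of 0.05 and open circles did not. Filled circles stand at 1.95 and 1.88 for *Edn1* and 1.64 and 1.20 for *Ptgs2* in the ligand comparisons, while none of the 9 is filled in the comparisons of KO with Ctrl cells.

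The remaining comparisons asked whether expression or the ligand response differed between KO and Ctrl cells. In PBS, none of the 9 members passed, and 0.0191% of all genes (3 genes) did. The member with the smallest p was *Nos3*, at 408, 630, 409 and 705 CPM in Ctrl PBS and 468, 666, 449.8 and 772 CPM in KO PBS of isolations 1 to 4. It was higher in the KO library of 4 of 4 isolations, by 0.14 on the log2 scale (adjusted p = 0.373), and passed under 2 of 12 alternatives (adjusted p between 0.00106 and 1). *Edn1* differed by -0.14 (95% interval -0.365 to 0.0839) and *Ptgs2* by -0.12 (95% interval -0.733 to 0.49). With edgeR 1 member was at an unadjusted p under 0.05 in PBS, beside 1071 of all 15693 genes. DESeq2 called 0 members, beside 7 of all genes. The fibroblast marker *Dcn* passed between the PBS groups (log2 fold change -0.61, adjusted p = 0.016) and between the ligand-treated groups (-0.61, adjusted p = 0.00835), and the part of other cells in these comparisons was not tested.

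With ligand, 0 of the 9 passed by edgeR, beside 0.255% of all genes (40 genes), and 0 by DESeq2, beside 141 genes. By edgeR, 1 of the 9 was at an unadjusted p under 0.05, beside 1454 of all 15693 genes. That gene was *Edn1*, lower in the KO library of 4 of 4 isolations, at a log2 fold change of -0.21 (95% interval -0.4 to -0.0282, adjusted p = 0.426). *Ptgs2* was also lower in KO cells in 4 of 4 isolations, at 284.5, 326, 179.5 and 160.4 CPM against 490.2, 468, 238 and 212 CPM in Ctrl cells. Its log2 fold change was -0.56 (SE 0.275, adjusted p = 0.563). Whether this passed depended on the fit. The main fit had no isolation-by-ligand terms, so the unequal ligand response of *Ptgs2* between isolations stayed in its error. The adjusted p was 0.00309 in a fit of only the 8 ligand-treated libraries and 0.0094 with isolation-by-ligand terms in the fit of all 16, an alternative added after the data were seen, while DESeq2 gave 0.87 and leaving out single isolations gave 0.336 to 0.759. Over 12 alternatives it ranged from 5.6e-35 (no filter on low counts) to 1 (no replicate block).

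No member passed in the difference of the ligand responses, KO minus Ctrl, where 0% of all genes passed by edgeR or by DESeq2 and 565 genes, none of them a member, were at an unadjusted p under 0.05. For *Edn1* the difference was -0.07 on the log2 scale (95% interval -0.365 to 0.219) and for *Ednrb* 0.10 (95% interval -0.244 to 0.443). For *Ptgs2* it was -0.44, with an interval from -1.28 to 0.40. A KO response smaller than the Ctrl response was thus seen for *Ptgs2* in 3 of 4 isolations, within an interval that includes no difference. Isolations 1 to 4 differed by -0.95, -0.60, -0.41 and 0.07. For *Ptgis* (-0.13) and *Nos3* (-0.08, 95% interval -0.181 to 0.0164) the difference was negative in every isolation, and both intervals include no difference.

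To place the 9 genes among others of their pathways, 5 wider lists were counted in the same fit. Of 8 endothelin genes listed, 4 were tested, and *Edn1* and *Ednrb* were those that passed in each genotype, beside the same 9.69% and 5.59% of all genes. The list's median log2 fold change was -0.01 for Ctrl and 0.02 for KO. *Ednra*, the endothelin A receptor typical of smooth muscle, had 4.95 ± 5.24 CPM in Ctrl PBS and did not pass. *Edn2*, *Edn3* and *Kel* had too few counts to be tested, as did *Ece2*.

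Of 28 nitric oxide genes tested, 1 passed in each genotype, beside 9.69% and 5.59% of all genes, with list medians of -0.01 in Ctrl and -0.03 in KO cells. The gene was *Slc7a1*, a transporter of the substrate arginine, which fell by 0.26 on the log2 scale in Ctrl cells (adjusted p = 5.95e-04) and by 0.17 in KO cells (adjusted p = 0.0384). *Nos2*, the inducible synthase, was at 17.8 ± 22.0 CPM in Ctrl PBS and 16.4 ± 21.6 CPM after sENG(M):BMP9.

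Of 17 prostanoid genes tested, 4 passed in Ctrl cells (9.69% of all genes did) and 3 in KO cells (5.59% of all genes), and the list medians were 3e-04 and 0.02. Beside *Ptgs2* and *Ptgis*, *Slco2a1*, a prostaglandin uptake transporter, rose by 0.18 and 0.21 on the log2 scale (adjusted p = 0.00738 and 0.00379). *Ptger4*, a receptor for prostaglandin E2, fell by 0.49 and 0.40 (adjusted p = 1.24e-04 and 0.00163). *Ptges*, the inducible prostaglandin E synthase, was at 370 ± 145 and 358 ± 140 CPM in Ctrl cells and did not pass.

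Of 10 angiotensin and kinin genes tested, 2 passed in Ctrl cells and 1 in KO cells, against 9.69% and 5.59% of all genes, with list medians of -0.05 and 0.07. *Bdkrb2*, the bradykinin B2 receptor, had the largest fold of all the listed genes in Ctrl cells but a low level. It rose from 0.791 ± 0.357 to 4.17 ± 1.60 CPM in Ctrl cells (log2 fold change 2.40, adjusted p = 1.22e-06) and from 1.19 ± 0.632 to 3.96 ± 2.02 CPM in KO cells (1.71, adjusted p = 5.72e-05).

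Of 12 genes for other vasoactive peptides tested, 5 passed in Ctrl cells and 3 in KO cells, where 9.69% and 5.59% of all genes passed, with list medians of 0.03 and 0.0038. *Adm*, which encodes the vasodilator adrenomedullin, fell by 0.75 and 0.65 on the log2 scale (adjusted p = 9.83e-09 and 1.07e-07). *Calcrl*, its receptor, fell by 0.36 and 0.21 (adjusted p = 2.18e-06 and 0.00171). *Ramp2* and *Ramp3*, which encode partner proteins of that receptor, rose in Ctrl cells by 0.20 and 0.24 (adjusted p = 0.0012 and 0.0281). *Npr1*, a receptor for natriuretic peptides, rose by 0.40 and 0.31 (adjusted p = 4.15e-06 and 1.25e-04). No gene of the 5 lists passed between KO and Ctrl cells in PBS, with ligand or in the difference of responses.

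**Figure D4:**
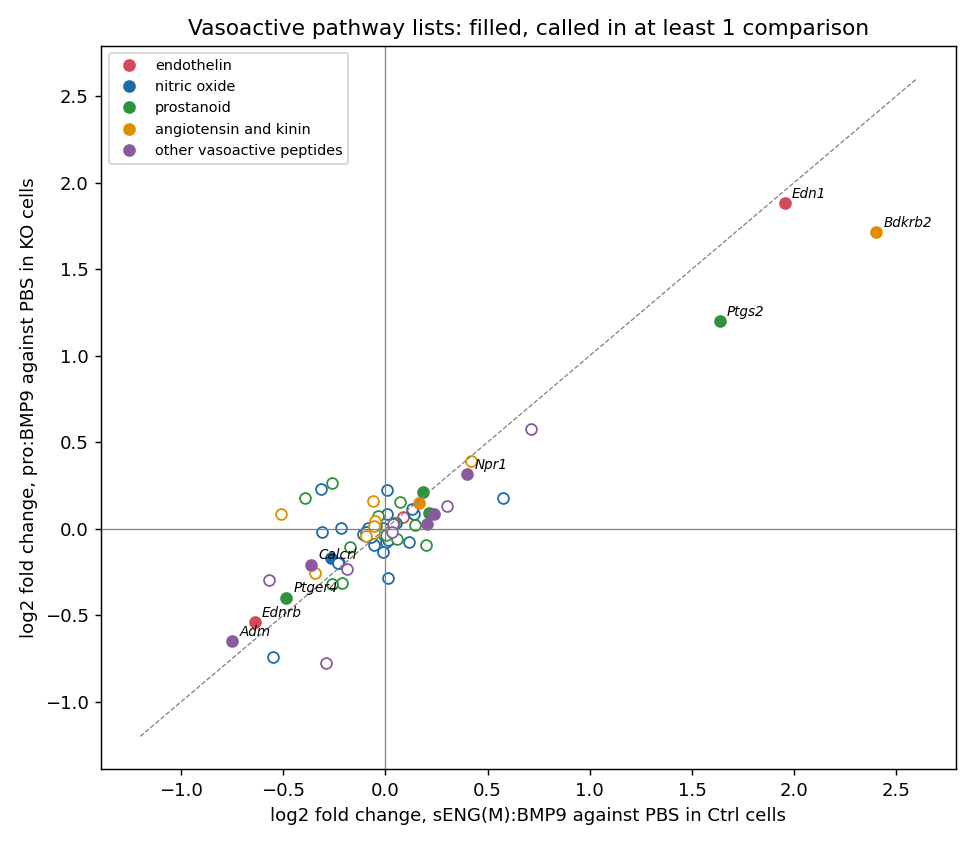
Log2 fold change with ligand in Ctrl cells (horizontal axis) and KO cells (vertical axis) for the tested genes of the 5 vasoactive lists, coloured by list; filled points passed in at least 1 of these comparisons, and those over 0.3 in size in Ctrl cells are named. *Edn1*, *Bdkrb2* and *Ptgs2* stand apart at 1.95, 2.40 and 1.64 in Ctrl cells, *Adm* is lowest among filled points at -0.75, and the dashed line marks equal responses.

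The genes whose pattern was most like that of *Edn1* were found by Pearson's r of log2 CPM over the 16 libraries after the mean of each isolation was removed. They were *Tram2* (r = 0.996), *Nuak1* (0.991), *Hoxa3* (0.991), *Pwwp2b* (0.990) and *Zbtb38* (0.989). By Spearman's rho they were *Tram2*, *Ccn1*, *Mafk*, *Egr2* and *Yaf2*, with values from 0.950 to 0.962, so only *Tram2* was in both lists. Among the members, r with *Edn1* was 0.814 for *Ptgs2*, 0.784 for *Ptgis* and 0.779 for *Ace*, and -0.845 for *Ednrb*. These values describe 16 libraries that share isolations and treatments.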

How the data were processed

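RNA of 16 MLEC libraries was sequenced from stranded libraries. According to the submitters' processing notes, reads were processed with HISAT2 2.0.5, featureCounts 1.5.0-p3 and DESeq2 1.26.0 on GRCm39. The authors deposited raw counts of reads per gene, which were used as deposited. The annotation release and the strand setting of the counting are not given in the sources used here. In GENCODE vM39 every member but *Ednrb* overlaps an opposite-strand gene, and none overlaps another on its own strand.

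Libraries were grouped by their labels. Tests used edgeR 4.0.16 in R 4.3.3: filterByExpr (minimum count 10, minimum total count 15), TMM, and a quasi-likelihood fit of all 16 libraries with group and isolation, Benjamini-Hochberg over 15693 genes. The replicate number follows the isolation name in the labels. After group means were removed, libraries with the same number correlated at 0.757 on average (24 pairs, lowest 0.670) and others at -0.251 (72 pairs). No pair of libraries in a group agreed within sampling noise. A prior count of 2 was used for log2 values within an isolation.

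All 9 members are named whatever their values. Of the wider lists, genes that passed are named, and *Ednra*, *Nos2*, *Ptges* and the untested endothelin genes were added after their values were seen, as was the marker *Dcn*. Members and lists were chosen with earlier results of these data known. The procedure was tested on simulated counts. The alternatives tried were no isolation block, DESeq2 1.42.0, RLE factors, no filter, at least 10 counts in every library, fits of 8 libraries, leaving out each isolation, and the study's own order of quantile normalisation, ComBat (sva 3.50.0; the batch was taken to be the isolation) and DESeq2. Isolation-by-ligand terms were added after the data were seen. Gene counts at this depth exceeded 3 in every library for every member. Intervals cover the spread that remains once group and isolation are fitted.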

Additional observations from a re-analysis of the deposited data

How the results depend on the processing

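With 4 isolations, main-fit p-values rest on the spread left once group and isolation are fitted. The lowest count of any member in any library was 46. Over the alternatives, the members' called log2 fold changes kept their direction and threshold in 80 results, fell short of the threshold in 16 and reversed in 0. Of the values that had not passed, 399 kept their side, 13 passed and 23 reversed.

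Without the replicate block, 1 member passed in Ctrl cells with ligand in place of 5 (*Ptgs2*) and 0 in place of 3 in KO cells. The all-gene counts then fell from 1521 to 167, from 878 to 91, from 3 to 1 (KO against Ctrl in PBS) and from 40 to 1 (with ligand). Leaving out 1 isolation gave 4 members called in Ctrl cells each time and 1 to 3 in KO cells, the 1 being *Edn1* without isolation 1. The all-gene counts then ranged from 1058 to 1392 and from 573 to 745 with ligand, from 1 to 69 for KO against Ctrl in PBS (69 without isolation 4) and from 6 to 175 with ligand (175 without isolation 4).

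In KO cells with ligand, 5 members passed in a fit of only 8 libraries, which added *Cav1* and *Ace*, and 5 after quantile normalisation, ComBat and DESeq2, which added *Nos3* and *Cav1*. Without a filter, *Ace* passed in KO cells (adjusted p = 4.3e-04), making 4, beside 1102 of all genes. In Ctrl cells the ComBat route kept the count at 5 but gained *Cav1* (adjusted p = 0.0475) and lost *Ace* (adjusted p = 0.0662). Of all genes, 2238 passed by that route, in place of 1521 in the main fit. All-gene counts in the fits of 8 libraries were 1573 and 1084 with ligand in Ctrl and KO cells. For KO against Ctrl in PBS, *Nos3* alone passed without a filter (adjusted p = 0.0262) and by the ComBat route (adjusted p = 0.00106), 1 member each. With ligand, 2 members passed without a filter (*Edn1* and *Ptgs2*), 1 in the fit of 8 libraries (*Ptgs2*) and 1 with isolation-by-ligand terms (*Ptgs2*). In the difference of responses, 1 passed without a filter (*Ptgs2*, adjusted p = 7.83e-09). The unfiltered fit estimated infinite prior degrees of freedom, against 8.85 with the filter, so all 29339 genes shared a common trend of spread and a gene's own spread had no weight. ComBat removes the isolation before the test, so the test counts none of the degrees of freedom it used.

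Other all-gene counts that moved by over 1.5 times were 1407 (KO with ligand), 176 (PBS), 539 (with ligand) and 14 (difference) by the ComBat route, 204, 517 and 52 for the last 3 without a filter, 7 and 141 by DESeq2 for KO against Ctrl in PBS and with ligand, 1 (PBS) in the fit of 8 libraries, and 1, 64 and 1 with isolation-by-ligand terms.

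The 23 reversals were all of small log2 differences that had not passed. *Nos3* in Ctrl cells with ligand was -0.01 by the ComBat route and ranged from -0.0026 to 0.0215 when 1 isolation was left out. For KO against Ctrl in PBS, *Ednrb* was -0.0834 by DESeq2, -0.0852 by ComBat and -0.1022 to 0.1303 without single isolations. *Ace* was -0.0175 by ComBat and -0.0605 to 0.0463 without single isolations, *Cav1* then ranged from -0.008 to 0.0887 and *Ptgs2* from -0.1893 to 0.0689. With ligand, *Ace* was 5e-04 without the block and -0.0703 to 0.029 without single isolations. *Ednrb* was -0.0168 by DESeq2, -0.0516 by ComBat and -0.0184 to 0.2152 without single isolations. *Cav1* was -0.0036 by ComBat and -0.0293 to 0.0403 without single isolations, and *Ptgs1* then ranged from -0.0461 to 0.0705. In the difference of responses, *Ece1* was 0.0106 by ComBat, and *Edn1* ranged from -0.1192 to 0.008 without single isolations. The causes of these reversals were not tested.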
